A study of Mus musculus with 100 samples.

Results

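The 9 genes described here are mouse genes of the mesothelium (Wt1, Msln, Upk3b, Upk1b and Krt19), of complement (C3 and Serping1) and of the acute phase response (Saa3 and Lcn2). They are 9 of 23109 gene-level entries in RNA tables of 37 libraries, and each of them has 1 transcript in those tables. They were chosen by their measured levels in KI and flox cells in neural cultures of day 16 and in trophectoderm, as read counts scaled to library size, so the differences between genotypes in those cultures, and the change from neural day 8 to day 16, are given as description with no test. Tests are given for the neural cultures of day 8, extraembryonic endoderm, embryoid bodies and embryos.

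The study asked what the enzymatic activity of MLL3 and MLL4 does in development, 2 methyltransferases of histone H3 at enhancers that are encoded by Kmt2c and Kmt2d. All cultured cells here, the references included, were Mll3-/- embryonic stem cells or their progeny. The reference cells, called flox below, were Mll3-/-;Mll4flox/flox, and the cells called KI were Mll3-/-;Mll4KI/KI, in clones 27 and 48. The labels do not spell out KI. Embryos were Mll3flox/KI;Mll4flox/+;Sox2-Cre (control) or Mll3flox/KI;Mll4flox/KI;Sox2-Cre (KI), with 3 embryos of each genotype at E8.5 and at E9.5, and Sox2-Cre acts in the epiblast, so that extraembryonic tissue keeps the floxed alleles. Stem cells in 2i medium with LIF were hanging-drop aggregated into embryoid bodies and sampled at days 4 and 10, with 1 flox and 2 KI libraries per time. Neural cultures were embryoid bodies given retinoic acid, dissociated at day 8 and kept in neuronal medium to day 16, with flox 1 and 2 and KI 27 and 48 at both days. Trophectoderm came from 6 days of doxycycline-induced CDX2 from a lentivirus, and extraembryonic endoderm from 5 days of retinoic acid with Activin A, each with 2 flox and 2 KI libraries. The labels do not say whether replicates of a group were separate cultures, so p-values measure only the spread between these samples.

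Mesothelium is the simple epithelium that lines the body cavities and covers the organs in them, and it arises from the coelomic epithelium of the embryo. Wt1 is a transcription factor of coelomic epithelium, epicardium and kidney, Msln (mesothelin) a surface glycoprotein of mesothelial cells, Upk3b and Upk1b are uroplakins, of which Upk1b is a tetraspanin, and Krt19 is a keratin of simple epithelia. C3 is the central component of complement, on which its activation pathways converge, and Serping1 is the inhibitor of the C1 proteases at the start of the classical pathway. Saa3 is a serum amyloid A made by many tissues in the acute phase, and Lcn2 is a lipocalin that binds iron-loaded siderophores. Inflammatory cytokines are known to raise transcription of C3, Saa3 and Lcn2, through NF-kappaB and C/EBP factors.

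Promoters of Upk3b, C3 and Saa3 are shown because these genes had the 3 largest log2 differences at neural day 16 and carry matches to the factors just named. Each is the 250 bases before the RefSeq start in GRCm38.p6, read 5′ to 3′ on the gene's strand. They lie at chr5:136038246-136038495 (Upk3b, plus strand), chr17:57228137-57228386 (C3, minus strand) and chr7:46715677-46715926 (Saa3, minus strand). Capitals mark a match to the kappaB motif in Upk3b and to the C/EBP motif TTGCNNAA in C3 and Saa3.
Upk3b: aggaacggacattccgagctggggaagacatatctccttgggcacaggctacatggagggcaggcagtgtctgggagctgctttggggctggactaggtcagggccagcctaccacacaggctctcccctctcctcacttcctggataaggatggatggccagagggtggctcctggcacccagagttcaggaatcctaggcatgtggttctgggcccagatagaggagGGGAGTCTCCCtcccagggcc
C3: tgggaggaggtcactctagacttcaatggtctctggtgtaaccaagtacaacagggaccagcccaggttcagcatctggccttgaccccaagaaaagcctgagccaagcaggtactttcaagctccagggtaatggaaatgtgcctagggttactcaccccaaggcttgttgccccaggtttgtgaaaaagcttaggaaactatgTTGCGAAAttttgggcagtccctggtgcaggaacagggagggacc
Saa3: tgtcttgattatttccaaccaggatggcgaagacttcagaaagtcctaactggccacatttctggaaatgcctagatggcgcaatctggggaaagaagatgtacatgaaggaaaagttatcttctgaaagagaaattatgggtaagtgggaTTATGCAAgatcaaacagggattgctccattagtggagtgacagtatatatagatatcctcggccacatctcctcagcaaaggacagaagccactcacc
The table of promoters matched 4 of the 9 members, the fourth being Lcn2 (chr2:32387740-32387989, minus strand). Motifs were searched on both strands, and the capitals in Upk3b are 2 overlapping kappaB matches on opposite strands. Of 32851 windows of the same length, 3.9% held the kappaB motif and 9.56% the C/EBP motif. Lcn2 also held a C/EBP match, while C3, Saa3 and Lcn2 held no kappaB match and Upk3b held no C/EBP match. Upk3b also held a match to the TEAD motif GGAATG, found in 12.6% of windows. The AP-1 motif TGANTCA (6.75% of windows) had no match in the 4 windows, nor had the TATA box motif TATAAA (12.4%). A match is a description of these letters and shows no binding.

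Gene-level depth was 39015978 to 59880727 reads per library in the neural set and 18908148 to 27555277 reads in all others. Levels are in CPM (counts-per-million of the library), scaled by TMM over all 37 libraries, and on that scale 3 reads were worth 0.0548 to 0.185 CPM. Transcripts of the targeted genes were present in every library. Kmt2d was at 143.6 to 321.7 CPM in flox and 173.8 to 342.6 in KI cultures, and Kmt2c at 28.6 to 103.8 and 31.9 to 107.3. In embryos Kmt2d was at 140.7 to 212.0 CPM in control and 158.9 to 194.0 in KI. Counts per gene do not show which part of a transcript an allele alters, so they do not check the genotypes. The labels call the RNA of stem cells, embryoid bodies and neural cultures poly(A) RNA and that of embryos, trophectoderm and extraembryonic endoderm total RNA, so levels set side by side across these sets also differ in that label. These are bulk libraries, in which fewer cells of a type and less RNA per cell cannot be told apart.

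The members did not share 1 site of highest level. Upk3b was highest in the flox embryoid body library of day 10 (208 CPM), followed by neural day 16 flox (mean 22.4) and E9.5 KI embryos (mean 18.4). Wt1 was highest in the same embryoid body library (147 CPM), with neural flox at day 8 (67.3) and day 16 (51.6) next. Upk1b (37.7 CPM) and Lcn2 (6.88 CPM) also peaked in that library, which has no replicate. C3 and Saa3 instead had their highest levels in neural day 16 flox, at means of 84.1 and 67.0 CPM, with the day 10 flox embryoid body second at 25.9 and 30.7 CPM. Msln was highest in flox trophectoderm (mean 9.96 CPM) and Krt19 in flox extraembryonic endoderm (mean 420 CPM), where it overlapped with KI (mean 387 CPM). Serping1 had means of 25.5 CPM in KI extraembryonic endoderm and 23.8 CPM in the day 10 flox embryoid body, and had its lowest mean, 0.769 CPM, in neural day 16 KI. Compared per transcript length, as deposited RPKM, the order of levels in neural day 16 flox was Saa3 (mean 88.9 RPKM), Wt1 (11.8), C3 (11.6), Krt19 (8.36), Upk3b (7.74), Serping1 (4.07), Upk1b (1.46), Lcn2 (0.596) and Msln (0.222). In the day 10 flox embryoid body that order was led by Upk3b (81.7 RPKM) and Krt19 (52.4), and in flox trophectoderm by Krt19 (135).

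**Figure D1:**
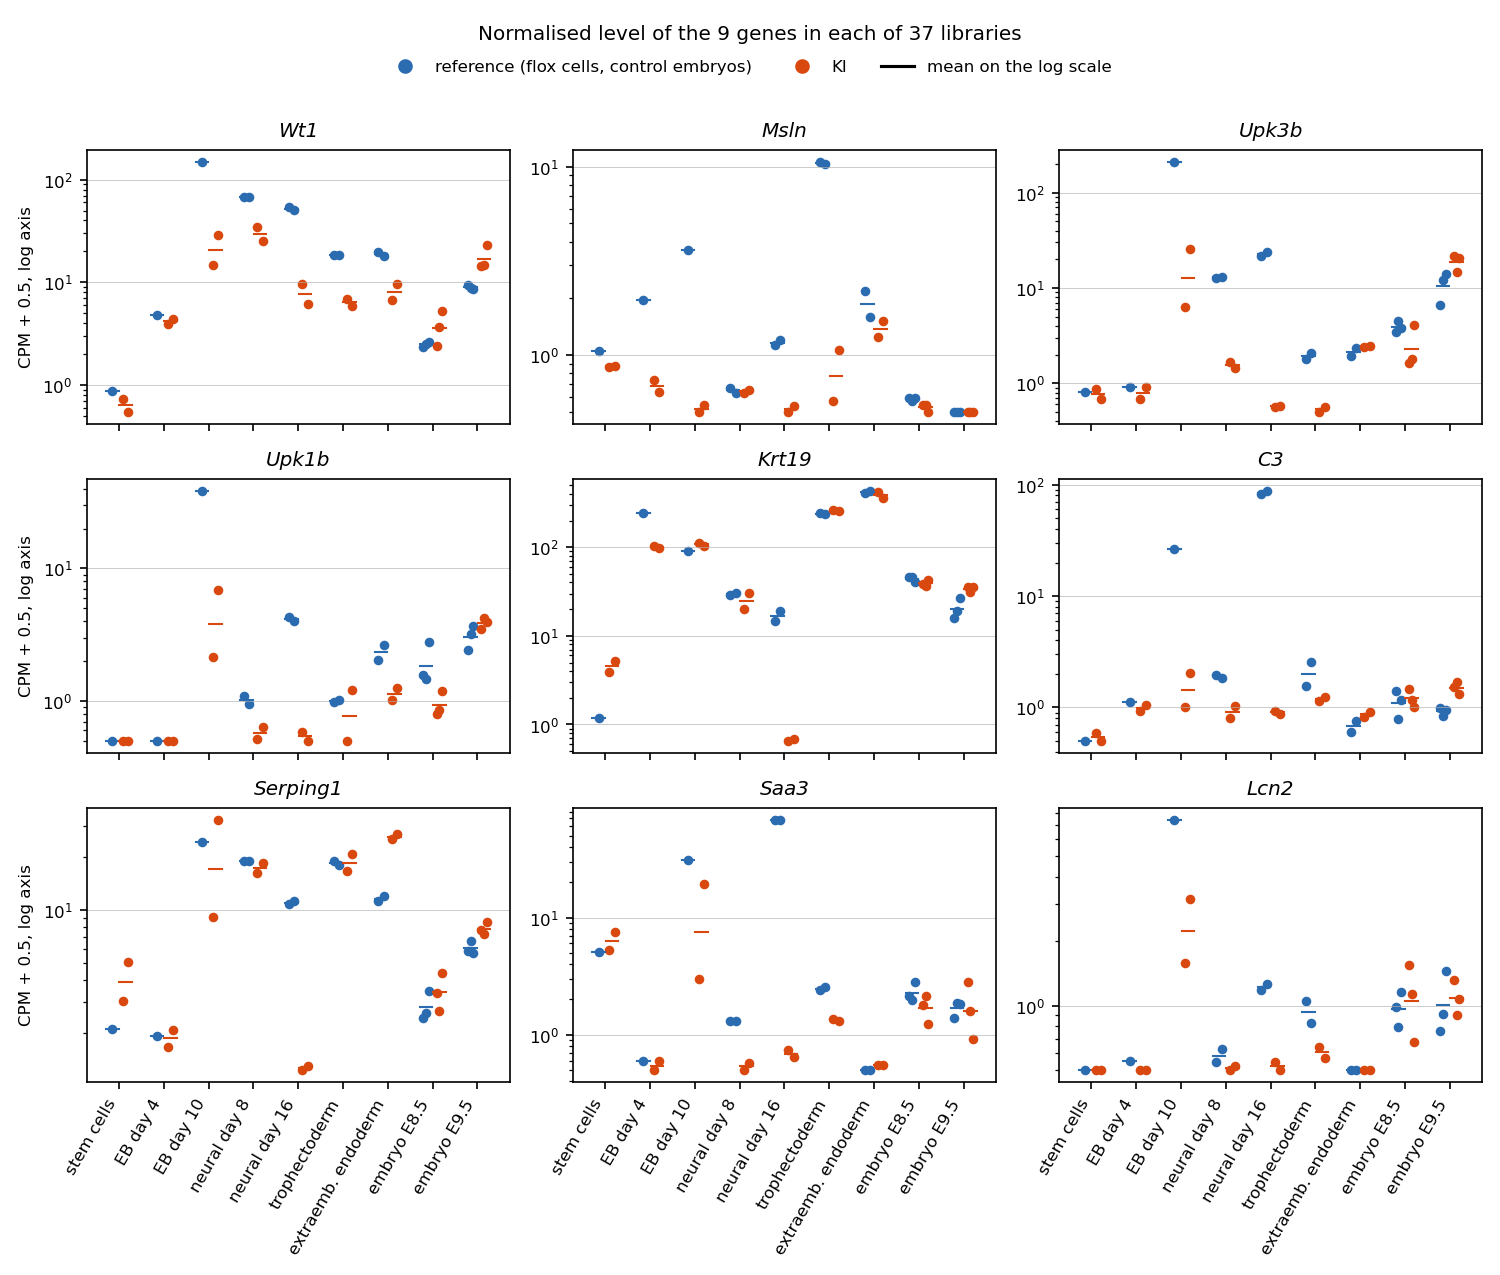
Level of each member in each of the 37 libraries, in CPM plus 0.5 on a log axis, by culture or embryo stage, with flox or control in blue, KI in orange and a short line at the mean on the log scale. Upk3b, Wt1, Upk1b and Lcn2 peak in the flox embryoid body of day 10, C3 and Saa3 in neural day 16 flox, Msln in flox trophectoderm and Krt19 in extraembryonic endoderm.

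At neural day 16 all 9 members had a lower mean level in KI than in flox, with the highest KI library below the lowest flox library for each. C3 was at 81.4 and 86.8 CPM in flox and at 0.433 and 0.382 CPM in KI, a difference of -6.54 on the log2(CPM + 0.5) scale. Saa3 was at 66.9 and 67.1 CPM in flox and at 0.238 and 0.141 in KI (log2 difference -6.62). Both were abundant in the 2 flox libraries and under 1 CPM in both KI clones. Among the mesothelial members, Upk3b was at 21.3 and 23.4 CPM against 0.0649 and 0.0803 (log2 difference -5.32). Krt19 was at 14.0 and 18.5 CPM against 0.151 and 0.181 (log2 difference -4.64). Wt1 had 53.5 and 49.7 CPM against 9.11 and 5.66 (log2 difference -2.76), and so kept the highest KI level of the list. Serping1 was at 10.3 and 10.7 CPM in flox and at 0.736 and 0.803 in KI (log2 difference -3.12). Upk1b was at 3.81 and 3.52 CPM against 0.0865 and 0 (log2 difference -2.94). Lcn2 and Msln were under 1 CPM in every library of this day, and the log2 scale understates their change. For Lcn2 the flox to KI ratio was 34.3 (exact 95% interval 9.12 to 289, from pooled read counts, covering counting error only), and for Msln it was 31.6 (8.37 to 267). Of the 7 members at 1 CPM or more, 7 were at least 2-fold lower without overlap, beside 7.66% of 14360 genes, and their median log2 difference was -4.64 beside 0.07 over all genes. Of those 7, 6 reached 1 CPM in flox only and this contrast chose the list, so nothing is read from that count.

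Other genes of these groups are given from lists fixed for this work with earlier results known. Of 18 other mesothelial genes at 1 CPM or more at day 16, 10 were at least 2-fold lower in KI without overlap (median log2 difference -1.85). However, 7 of the 18, and 5 of the 10, reached 1 CPM in flox only. Summed over the 19 list genes in the data, the genotypes overlapped, at 846.7 to 1027 CPM in flox and 838.0 to 909.8 in KI. Among the 10 were Aldh1a2, which makes retinoic acid (-4.93), the transcription factor Bnc1 (-4.23) and the keratin Krt7 (-3.35), the last 2 among those that reached 1 CPM in flox only. Of 9 other complement genes, 3 were lower in that sense (median -0.57), the proteases C1s1 (-4.07), C1ra (-3.89) and C2 (-1.40). Of the acute phase genes, Cp was lower too (log2 difference -2.16). Saa1 (means of 1.25 CPM in flox and 0.010 in KI) and Serpina3n (4.02 and 0.877) reached 1 CPM in flox only. For Saa1 the flox to KI ratio was 126 (exact 95% interval 22.3 to 5037, from pooled read counts, covering counting error only). Of 11 cytokine and NF-kappaB genes, 10 were lower (median -1.46), for example the chemokine Ccl2 (-2.69) and the NF-kappaB regulator Nfkbiz (-2.22). In the complement list 2 of 9 genes and in the cytokine list 2 of 11 reached 1 CPM in flox only. A gene that reached the minimum in 1 group only had to differ, so nothing is read from these counts and medians.

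Markers of other cell types also differed between the genotypes at day 16. Summed fibroblast markers were at 4307 to 4536 CPM in flox and at 1169 to 1437 in KI, with 7 of 9 at least 2-fold lower without overlap. Neuron markers summed to 2843 to 2940 CPM in flox and 5095 to 5754 in KI, with 2 of 6 at least 2-fold higher. Astrocyte markers summed to 286.8 to 288.6 CPM in flox and 175.3 to 192.7 in KI, with 2 of 3 at least 2-fold lower, Gfap (log2 difference -3.31) and Slc1a3 (-1.23). Extraembryonic endoderm markers were lower in 3 of 3 cases, at sums of 80.4 CPM in both flox libraries and 13.0 to 24.9 in KI. Macrophage markers were near 0 in both (sums of 0.217 to 0.304 and 0.301 to 0.368 CPM), with Ptprc, Csf1r and Adgre1 each under 0.1 CPM in flox. Hepatocyte and yolk sac markers were also near 0 (0.645 to 0.868 and 0.541 to 0.582 CPM), with Alb, Afp and Ttr under 0.1 CPM in flox. The part of these markers in the differences of the members was not tested.

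From day 8 to day 16 the members moved differently in flox and in KI. In flox, C3 went from a mean of 1.40 to 84.1 CPM (log2 difference 5.48), Saa3 from 0.812 to 67.0 (5.69) and Upk1b from 0.52 to 3.67 (2.03). Wt1 (-0.38), Krt19 (-0.83), Serping1 (-0.78) and Upk3b (0.81) stayed within 2-fold in flox. In KI, Krt19 went from a mean of 24.6 to 0.166 CPM (log2 difference -5.21), Serping1 from 16.7 to 0.769 (-3.76), Wt1 from 29.4 to 7.39 (-1.94) and Upk3b from 1.07 to 0.0726 (-1.45). The low KI levels of Krt19 and Serping1 at day 16 thus followed day 8 levels that did not pass the test between genotypes. In flox, 3 of 7 members at 1 CPM or more were at least 2-fold higher at day 16 without overlap, beside 3622 of 14668 genes. In KI, 4 of 4 were lower in that sense, beside 2629 of 14458 genes. Nothing is read from these counts, as day 16 levels chose the list. Fibroblast markers were at least 2-fold higher at day 16 in 7 of 9 cases in both genotypes. Neuron markers were higher in 5 of 6 cases in flox and 6 of 6 in KI, and astrocyte markers in 3 of 3 and 2 of 3. Neural progenitor markers were lower in 3 of 3 cases and extraembryonic endoderm markers in 3 of 5, in both genotypes. The part of these markers in the members' changes was not tested. The same flox numbers and KI clones were sampled at both days and are not independent across days.

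**Figure D2:**
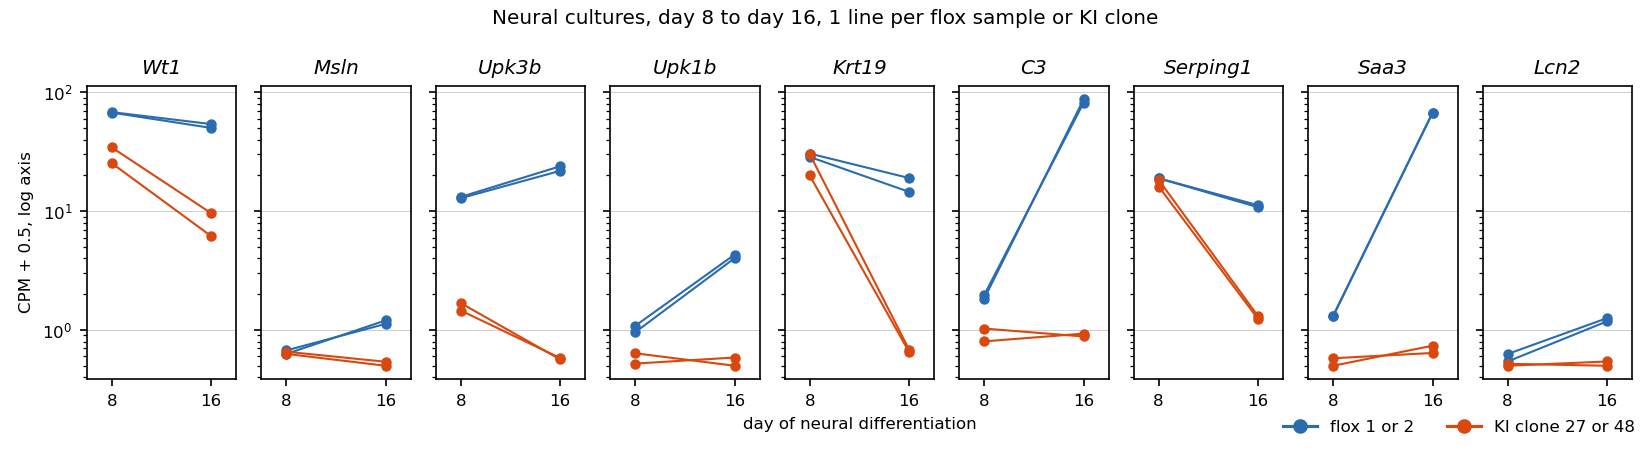
Level of the members in neural cultures at day 8 and day 16, in CPM plus 0.5 on a log axis, with 1 line per flox sample (blue) or KI clone (orange). Lines for C3 and Saa3 climb in flox and stay low in KI, and those for Krt19 and Serping1 start together and end apart.

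Neural day 8 is not among the cultures named for the choice of genes, but it holds the same flox numbers and KI clones as day 16. The genes were also chosen with earlier results of these data known, so its calls are not shown to be independent of that choice. Saa3, Upk3b, Upk1b, C3 and Wt1 were lower in KI, and Krt19, Serping1, Msln and Lcn2 did not pass the test (edgeR's quasi-likelihood test, Benjamini-Hochberg adjusted over all 16439 genes tested). Upk3b was at 12.3 and 12.7 CPM in flox and at 1.18 and 0.958 in KI. It fell by 3.53 on the log2 scale (SE 0.15, adjusted p = 6.73e-08, edgeR). Wt1 was at 67.6 and 67.0 CPM against 33.9 and 24.8, a log2 change of -1.19 (SE 0.19, adjusted p = 0.00122, edgeR). For both, each KI clone was below both flox libraries.

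C3 was at 1.47 and 1.33 CPM in flox and at 0.302 and 0.528 in KI, a log2 change of -1.72 (SE 0.23, adjusted p = 0.000186, edgeR). Saa3 was at 0.820 and 0.804 CPM against 0 and 0.0782 (log2 change -4.22, SE 0.49, adjusted p = 6.26e-05, edgeR). Upk1b was at 0.583 and 0.457 CPM against 0.0216 and 0.137 (log2 change -2.61, SE 0.60, adjusted p = 0.00811, edgeR). These 3 genes were already lower in KI before their levels climbed in flox, though at day 8 all were under 2 CPM. Without the KI 27 library Upk1b was at -1.89 (adjusted p = 0.0833, edgeR) and Saa3 at -3.33. Without KI 48 Upk1b was at -4.41, and for Saa3 the remaining KI library has 0 reads, so no fitted value is given.

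Krt19 was at 28.1 and 30.0 CPM in flox and at 19.5 and 29.8 in KI (log2 change -0.23, SE 0.17, adjusted p = 0.445, edgeR), and the groups overlapped. Serping1 was at 18.4 and 18.4 CPM against 15.6 and 17.8 (log2 change -0.13, SE 0.11, adjusted p = 0.515, edgeR). Msln was under 0.2 CPM in all 4 libraries (adjusted p = 0.98, edgeR). Lcn2 was at 0.0432 and 0.128 CPM against 0 and 0.0196 (adjusted p = 0.133, edgeR), levels at which a difference was hardly detectable. In all, 5 of 9 members were called, all lower, beside 19.5% of genes called in either direction and 13.2% called lower. Their median log2 change was -1.72, beside 0.00 over all genes.

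Among the listed neighbours at day 8, 10 of 19 other mesothelial genes fell and 2 rose (median log2 change -0.51), with the Wnt agonist Rspo1 at -3.90, Lrrn4 at -3.78 and Aldh1a2 at -3.64. Of 10 other complement genes 5 fell and 0 rose (median -0.52), including C2 (-2.61), the membrane inhibitor Cd59a (-1.91) and C1s1 (-1.71). Of 6 acute phase genes 1 fell, the pentraxin Crp (-2.84). Of 12 cytokine and NF-kappaB genes 4 fell and 0 rose, among them Ccl2 (-2.34), the C/EBP factor gene Cebpd (-2.01) and the NF-kappaB inhibitor Nfkbia (-0.52). Krt14 (-2.90) and Krt20 (-1.12) fell among the 4 other uroplakins and keratins, where Upk1a rose (1.11). Fibroblast markers moved with them, as 6 of 9 fell and 1 rose, and their sum was 333 to 335 CPM in flox and 109 to 151 in KI. Neuron markers were lower too, with 5 of 6 called and sums of 965 to 968 CPM against 655 to 724. Extraembryonic endoderm markers fell in 4 of 5 cases (103.2 to 103.4 against 33.4 to 35.6) and hepatocyte and yolk sac markers in 2 of 2 (3.60 to 3.63 against 0.905 to 1.72). The part of these marker lists in the members' changes was not tested.

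**Figure D3:**
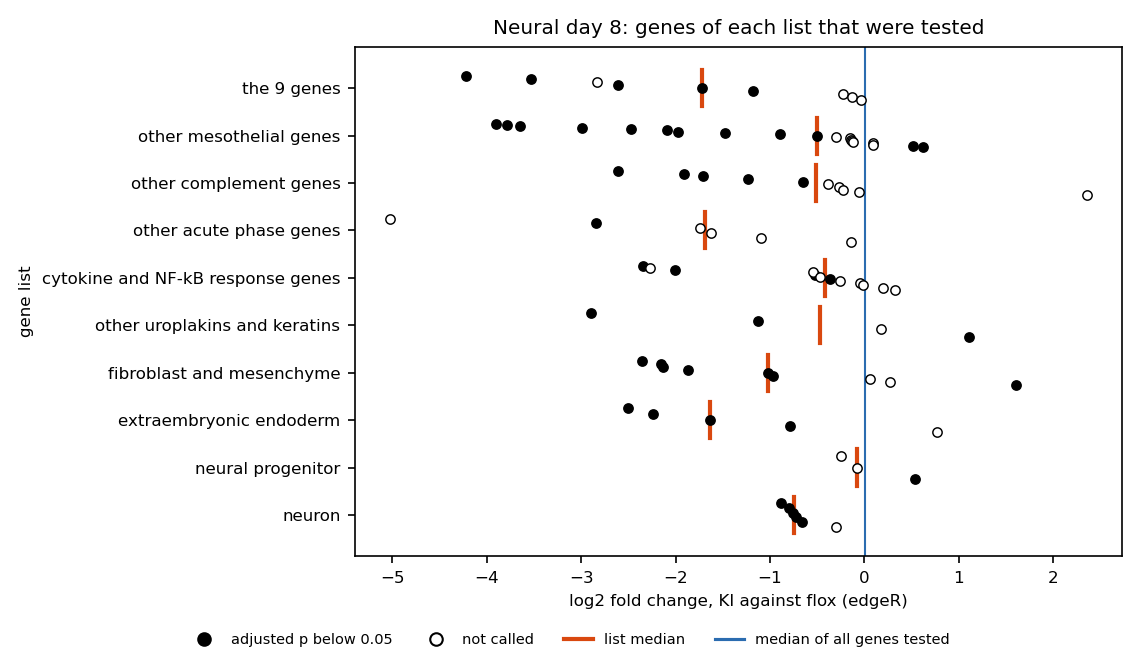
Log2 change of KI against flox at neural day 8 for each tested gene of the listed groups, with calls at adjusted p under 0.05 (edgeR) shown apart from the rest. Of the members, 5 of 9 were called and all 5 were lower, and in the mesothelial list 10 of 19 were lower.

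Trophectoderm cultures differed in which members were low. Msln was at 10.1 and 9.85 CPM in flox and at 0.0717 and 0.564 in KI, a difference of -3.75 on the log2(CPM + 0.5) scale. Wt1 was at 17.9 and 17.8 CPM against 6.45 and 5.42 (log2 difference -1.51). Upk3b was at 1.31 and 1.59 CPM against 0 and 0.0704 (log2 difference -1.86), with a flox to KI ratio of 40.9 (exact 95% interval 10.9 to 344, from pooled read counts, covering counting error only). Both KI clones were below both flox libraries for these 3 genes. Krt19 was at 240.5 and 237.9 CPM in flox and 265.3 and 254.7 in KI, and Serping1 at 18.3 and 17.4 against 16.1 and 20.1. Both are abundant here and lay within 2-fold. C3 (1.07 and 2.04 CPM against 0.645 and 0.74) and Saa3 (1.90 and 2.04 against 0.860 and 0.810) were also within the 2-fold limit on that scale, though without overlap. With a pseudocount of 0.1 in place of 0.5, Saa3 and Lcn2 passed that limit as well, so that 5 members were set apart in place of 3. Upk1b overlapped between genotypes, and Lcn2 was under 1 CPM throughout. Of the 7 members at 1 CPM or more, 3 were at least 2-fold lower without overlap, beside 8.69% of 13898 genes, and 0 were higher, beside 6.55%. Of those 7, 4 reached 1 CPM in flox only, and this contrast too chose the list, so nothing is read from the counts.

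The lists around them were mixed in trophectoderm. Among 12 other mesothelial genes 4 were lower and 2 higher in KI (median log2 difference 0.03), with Efemp1 at -2.59 and Krt7 at 1.35. Of 8 other complement genes 4 were lower and 1 higher, including Masp1 (-2.34), C2 (-2.25) and Cd59a (-2.23), and of 9 cytokine and NF-kappaB genes 3 were higher, including the receptor Il6ra (2.39) and Nfkbiz (1.41). In each of these lists 1 to 3 genes reached 1 CPM in 1 genotype only, so nothing is read from the counts. Trophoblast markers summed to 292.6 to 294.2 CPM in flox and 527 to 596 in KI. Of these, Cdx2, whose transgene is induced here, had means of 27.5 and 102.9 CPM and Elf5 of 16.9 and 1.20 CPM. Fibroblast markers summed to 321 to 324 CPM in flox and 77 to 125 in KI, and pluripotency markers to 416 to 417 against 120 to 189. Neuron markers summed to 95.6 to 100.7 CPM against 17.9 to 20.1, and macrophage markers to 8.44 to 11.8 against 20.2 to 22.3. Their part in the members' values was not tested.

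Extraembryonic endoderm, in which the genes were not chosen, had 2 of 8 tested members called, beside 35.5% of all 15532 genes. With 8 members, nothing is read from that count. Wt1 was at 19.1 and 17.5 CPM in flox and at 6.27 and 9.07 in KI, a log2 change of -1.26 (SE 0.18, adjusted p = 9.26e-05, edgeR). Serping1 went the other way, from 10.6 and 11.5 CPM to 24.8 and 26.2 (log2 change 1.21, SE 0.14, adjusted p = 1.27e-05, edgeR). Groups did not overlap for either gene. Krt19, at 412 and 428 CPM in flox and 414.5 and 359.5 in KI, was not called (adjusted p = 0.164, edgeR). Upk3b was at 1.44 and 1.84 CPM against 1.92 and 1.99 (log2 change 0.26, adjusted p = 0.722, edgeR) and Upk1b at 1.54 and 2.15 against 0.515 and 0.764 (log2 change -1.52, adjusted p = 0.185, edgeR). Msln was at 1.69 and 1.1 CPM against 0.749 and 1.02 (adjusted p = 0.345, edgeR). C3 stayed under 0.5 CPM (adjusted p = 0.38, edgeR), Saa3 had 2 reads in the 4 libraries and Lcn2 had 0 reads. The median log2 change was 0.07 beside 0.00 over all genes. Without the KI 27 library Krt19 was called (adjusted p = 0.0059), and Upk1b was called when the fit held these 4 libraries alone (adjusted p = 0.0263).

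Other mesothelial genes were called in both directions in extraembryonic endoderm, 7 higher and 5 lower of 16. Cytokine and NF-kappaB genes were called higher in 6 of 11 cases and lower in 0. Uroplakins and keratins were called higher in 4 of 5, with Krt14 at 3.72, Upk2 at 3.27 and Upk1a at 2.06. Other complement genes were called lower in 4 of 11 cases and higher in 2 (median log2 change -0.71). Of 6 other acute phase genes 1 was called lower and 0 higher (median -1.27). Extraembryonic endoderm markers fell in 5 of 5 cases, from sums of 823 to 853 CPM in flox to 226 to 233 in KI, and fibroblast markers had sums of 2060 to 2146 against 341 to 526. Hepatocyte and yolk sac markers fell in 3 of 3 cases (71.5 to 79.8 against 0.713 to 0.843). Their part in the changes of Wt1 and Serping1 was not tested.

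**Figure D4:**
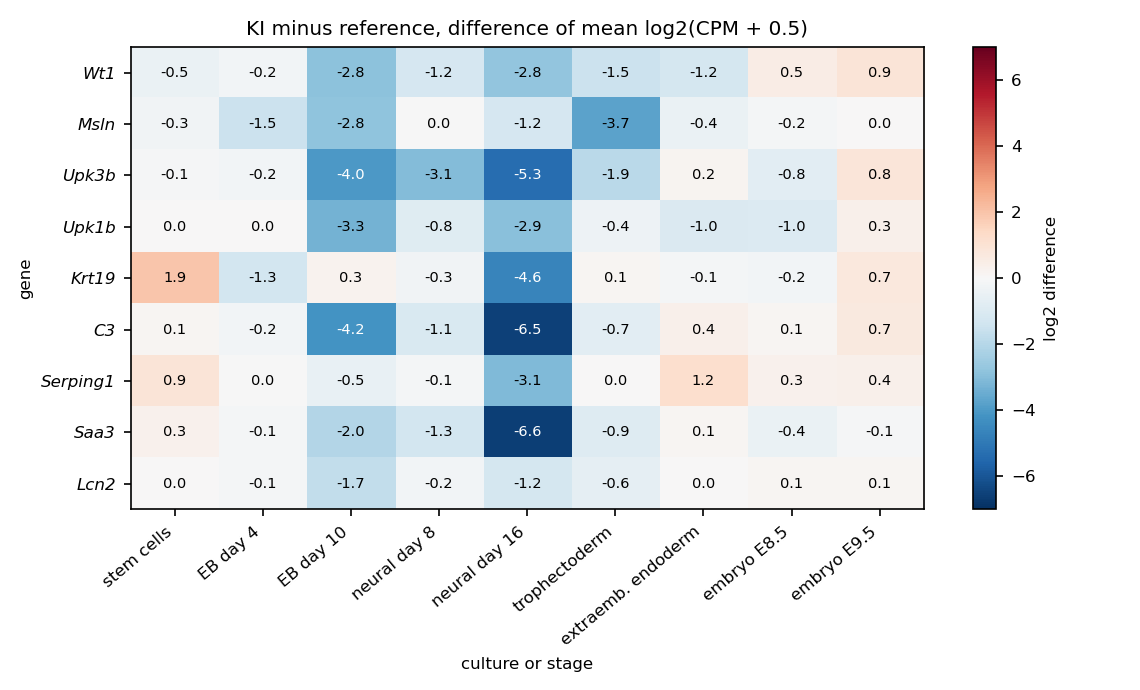
KI minus reference difference of the mean log2(CPM + 0.5) for each member (rows) in 9 settings (columns), with flox the reference in cultures and control in embryos. Wt1 is negative in each differentiated culture and positive in both embryo stages, and Krt19 is far below 0 at neural day 16 but near 0 in trophectoderm and extraembryonic endoderm.

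In embryoid bodies of day 10, with 1 flox library, Upk3b was at 207.6 CPM in flox and at 5.74 and 25.2 in KI clones 27 and 48 (log2 difference -4.04). Wt1 was at 147.1 CPM against 14.2 and 28.3 (-2.85), and Upk1b at 37.7 against 1.64 and 6.34 (-3.32). C3 was at 25.9 CPM against 0.512 and 1.54 (-4.20) and Lcn2 at 6.88 against 1.08 and 2.67 (-1.72). Clone 27 had the lowest value of each of these 5 genes. Msln was at 3.11 CPM against 0 and 0.0417, a flox to KI ratio of 135 (exact 95% interval 23.6 to 5415, covering counting error only), and reached 1 CPM in flox only. Saa3 was at 30.7 CPM against 2.46 and 19.0, Serping1 at 23.8 against 8.61 and 31.7, and Krt19 at 89.7 against 111.4 and 102.9, so these 3 were not 2-fold lower in both clones. In all, 6 of 9 members were at least 2-fold lower in both clones, beside 3.86% of 14442 genes, with a median log2 difference of -2.80 beside 0.02. With 1 flox library this difference has no replicate check.

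At day 4 only 4 members reached 1 CPM, and 2 of them were at least 2-fold lower in both clones, beside 4.12% of genes. Krt19 was at 243.3 CPM in flox and at 103.7 and 96.9 in KI, and Msln, which reached 1 CPM in flox only, at 1.47 against 0.234 and 0.14. In stem cells Krt19 was instead lower in flox, at 0.677 CPM against 3.38 and 4.76. Averaged over days 0, 4 and 10, 0 of 9 members were called by edgeR's quasi-likelihood test, beside 0.73% of 16567 genes. At an unadjusted p under 0.05 the count was 6, beside 16.4% of genes, and DESeq2 called 2, Wt1 and Msln, beside 4.78%. edgeR also called Msln without the stem cell flox library and Wt1 without the day 4 flox library. In the fit of all libraries the averaged log2 change was -1.78 for Wt1 and -3.22 for Msln. Over 16 other fits it ran from -2.66 to -0.48 for Wt1 and from -4.47 to -1.86 for Msln, and for both genes it was nearest to 0 without the day 10 flox library. At day 10, 9 of 18 other mesothelial genes were at least 2-fold lower in both clones (median log2 difference -1.25), 1 of which reached 1 CPM in flox only. Among the 9 were Bnc1 (-3.54) and the transcription factor Tbx18 (-3.16). Summed over the 19 mesothelial list genes in the data, flox was at 1913 CPM and KI at 1907 to 2669. Of 14 complement genes 1 was lower in both clones, C2 (-2.16). Of 5 acute phase genes 1 was higher in that sense and 0 lower (median 0.43). Of 14 cytokine and NF-kappaB genes 1 was higher and 0 lower (median 0.09), and 1 of the 14 reached 1 CPM in KI only. Fibroblast markers summed to 13810 CPM in the flox library of that day and to 7069 to 17070 in KI, and heart markers to 1172 and 110.4 to 167.0. Sums were higher in KI for markers of epithelium (122.4 CPM in flox and 304.0 to 362.4 in KI), extraembryonic endoderm (826.5 and 1098 to 1281), trophoblast (133.7 and 190.5 to 275.6) and hepatocytes and yolk sac (35.7 and 121.2 to 127.6). At day 4 other mesothelial genes summed to 2338 CPM in flox and 829.5 to 1010 in KI, with 4 of 14 at least 2-fold lower in both clones and 1 higher. Fibroblast markers summed to 234.2 CPM in flox and 88.5 to 110.6 in KI on that day, and neuron markers to 119.8 and 76.0 to 83.6. Extraembryonic endoderm markers were at least 2-fold lower in both clones in 2 of 5 cases and trophoblast markers in 1 of 5, and 1 of 3 pluripotency markers was higher. Their part in the members' values was not tested.

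Within KI, where 2 clones were sequenced at each time, most members had higher levels at day 10 than at day 4. From day 4 to day 10, 6 of 8 tested members rose, beside 36.7% of genes called higher. Upk3b rose from a mean of 0.304 ± 0.164 to 15.5 ± 13.8 CPM (SD, n = 2; log2 change 5.61 by edgeR), and Wt1 from 3.69 ± 0.317 to 21.2 ± 9.98 CPM (log2 change 2.48). Upk1b and Lcn2 had 0 reads in both clones at day 4, and their day 10 means were at least 28.3-fold and 13.3-fold higher, against 3 reads in the shallower day 4 library. In clone 27 alone the bounds were 11.7-fold for Upk1b and 7.65-fold for Lcn2, and in clone 48 they were 45.3-fold and 19.1-fold. Serping1 rose by 3.83 on the log2 scale. Saa3 rose from 2 reads in both clones together to 2.46 CPM in clone 27 and 19.0 in clone 48. Its pooled ratio of 247 has an exact 95% interval of 68.1 to 2047 that covers counting error only and not the gap between the clones. Without clone 48 at day 10 the log2 changes were 4.17 for Upk3b, 1.89 for Wt1, 2.60 for Serping1 and 5.51 for Saa3, each still called. Krt19 (log2 change 0.05) and C3 (1.04) were not called. The calls of Upk1b and Lcn2 were lost with DESeq2. Without the KI 27 library of day 10, C3 was called. Of 18 other mesothelial genes 12 rose and 4 fell, while 8 of 13 complement genes, 4 of 4 acute phase genes and 14 of 14 cytokine and NF-kappaB genes rose and 0 fell. Markers of several cell types moved over the same days. Fibroblast markers rose in 8 of 9 cases (summed CPM 88.5 to 110.6 at day 4 and 7069 to 17070 at day 10), macrophage markers in 3 of 3 tested (0.422 to 0.467 and 28.0 to 94.1) and hepatocyte and yolk sac markers in 3 of 3 (0.233 to 0.563 and 121.2 to 127.6). Extraembryonic endoderm markers rose in 5 of 5 cases (105.6 to 113.2 and 1098 to 1281) and heart markers in 3 of 3 (7.14 to 7.55 and 110.4 to 167.0). Pluripotency markers fell in 3 of 3 cases (1161 to 1235 and 10.8 to 18.8), neural progenitor markers in 3 of 3 (261.6 to 266.8 and 109.7 to 125.5) and epithelium markers in 2 of 2 (714.6 to 768.1 and 304.0 to 362.4). The part of these markers was not tested. Whether flox rose more than KI was not tested either, as flox has 1 library per time.

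From stem cells to day 4, 4 of 8 tested KI members were called, beside 50.3% of genes. Krt19 rose by 4.62 on the log2 scale (SE 0.14, adjusted p = 1.5e-06, edgeR) and Wt1 by 4.67 (SE 0.64, adjusted p = 0.00125, edgeR). Saa3 fell (adjusted p = 0.0201, edgeR), from 5.91 ± 1.54 CPM (SD, n = 2) to 2 reads in both clones together, a pooled ratio of 126 (exact 95% interval 34.6 to 1048, covering counting error only). C3 rose (adjusted p = 0.0381, edgeR) from 2 reads in both clones together to 0.422 and 0.560 CPM, a pooled ratio of 10.6 (exact 95% interval 2.58 to 92.9, covering counting error only). Their fitted log2 changes rest on those few reads and ran from 2.33 to 6.44 for C3 and from -10.01 to -5.90 for Saa3 over 9 other fits. The calls held in 5 of the 9 for each gene. The C3 call was lost without any 1 of the 4 libraries (adjusted p 0.0328 to 0.172 over the 9, edgeR or DESeq2), and the Saa3 call without stem cell KI 48, without either day 4 library and with no filter on low counts (0.00011 to 0.071 over the 9). Wt1 was at 6.15 without stem cell KI 27 and 3.96 without stem cell KI 48, called in both. With the clone as replicate block, Serping1 was called as well (log2 change -1.34, adjusted p = 0.0299, against 0.191 without the block, edgeR). Markers of extraembryonic endoderm rose in 5 of 5 cases over the same days, from sums of 9.01 to 10.7 CPM to 105.6 to 113.2, and trophoblast markers rose in 4 of 5 and fell in 1 (82.4 to 94.6 against 345.0 to 398.6). Pluripotency markers fell in 2 of 3 cases (2570 to 2779 against 1161 to 1235), and neuron markers in 3 of 5, with 1 higher (317.7 to 351.1 against 76.0 to 83.6). Their part was not tested.

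At E8.5, in a fit that did not pair embryos, 1 of 8 tested members was called, beside 5.46% of 15436 genes. That gene was Upk1b, at 1.06, 0.959 and 2.29 CPM in control and 0.304, 0.360 and 0.691 in KI embryos, a log2 change of -1.65 (SE 0.43, adjusted p = 0.0305, edgeR). Its groups did not overlap, and the call was lost without KI 1, KI 2 or control 3 and when only E8.5 libraries were fitted (adjusted p up to 0.196). Upk3b was at 2.94, 4.02 and 3.27 CPM in control and 1.13, 1.30 and 3.59 in KI (log2 change -0.77, adjusted p = 0.38, edgeR). KI 3 lay among the controls and the other 2 below them, and without KI 3 the gene was called (adjusted p = 0.026). Wt1 was at 1.84, 1.99 and 2.15 CPM in control and 1.91, 3.20 and 4.80 in KI (log2 change 0.73, adjusted p = 0.145, edgeR), and was called without KI 1 (adjusted p = 0.0345). Krt19 was at 40.1 to 45.8 CPM in control and 36.4 to 42.6 in KI. C3, Serping1, Saa3 and Lcn2 were each under 4 CPM with overlapping groups. Msln did not reach the filter on low counts and had 0 reads in all E9.5 embryos.

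At E9.5, 2 of 8 tested members were higher in KI embryos, beside 14.6% of genes called higher. Wt1 was at 8.94, 8.38 and 8.19 CPM in control and 13.9, 14.2 and 22.4 in KI, a log2 change of 0.97 (SE 0.24, adjusted p = 0.00517, edgeR). Krt19 was at 15.3, 18.7 and 26.5 CPM against 34.7, 30.7 and 35.1 (log2 change 0.72, SE 0.15, adjusted p = 0.00185, edgeR). All 3 KI embryos were above all 3 controls for both genes, and both changes are under 2-fold. C3 was at 0.484, 0.343 and 0.457 CPM in control and 1.01, 1.20 and 0.825 in KI, which did not overlap but did not pass (log2 change 1.23, SE 0.52, adjusted p = 0.0841, edgeR). Upk3b was at 6.15, 11.5 and 13.4 CPM against 21.1, 14.2 and 19.9 (log2 change 0.82, adjusted p = 0.119, edgeR). Serping1 was at 5.20 to 6.12 CPM in control and 6.76 to 8.00 in KI, and Saa3 and Lcn2 overlapped.

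The change in KI effect from E8.5 to E9.5 was called for 2 of 8 members, beside 6.63% of genes. It was 2.01 on the log2 scale for Upk1b (SE 0.56, adjusted p = 0.0358, edgeR) and 0.89 for Krt19 (SE 0.21, adjusted p = 0.0176, edgeR). Krt19 kept an adjusted p under 0.05 in 17 of 17 other fits, though its change is under 2-fold and a 2-fold minimum ends its call. Upk1b was lost in 7 of the 17 (adjusted p 0.0121 to 0.125), each of these leaving out 1 embryo. Upk3b had 1.58 (SE 0.57, adjusted p = 0.129, edgeR; 0.00389 without E8.5 KI 3) and Wt1 0.24 (SE 0.37, adjusted p = 0.764, edgeR). With the E8.5 title number as a replicate block, 1304 genes were called at E8.5 against 843 without it, and 1547 against 1024 for the change in effect.

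With stage, control embryos had 4 of 8 members called, beside 24.2% of genes. Wt1 rose by 2.10 on the log2 scale (SE 0.27, adjusted p = 1.62e-05, edgeR), Upk3b by 1.60 (SE 0.40, adjusted p = 0.013, edgeR) and Serping1 by 1.27 (SE 0.25, adjusted p = 0.000806, edgeR). Krt19 fell by 1.11 (SE 0.15, adjusted p = 5.66e-05, edgeR), from 43.8 ± 3.20 to 20.2 ± 5.74 CPM (SD, n = 3). In KI embryos 4 of 8 rose, beside 15.9% of genes called higher, with Upk3b at 3.19, Upk1b at 2.89, Wt1 at 2.35 and Serping1 at 1.30. Krt19 went from 38.9 ± 3.27 to 33.5 ± 2.46 CPM in KI (SD, n = 3) and was not called. Upk1b was not called in controls, except without E8.5 control 3 (adjusted p = 0.0204, edgeR). The Upk3b call in controls was lost without E8.5 control 1 or E9.5 control 2. Over the same stages in controls, extraembryonic endoderm markers fell in 3 of 5 cases (sums of 170.7 to 220.0 CPM to 96.7 to 106), trophoblast markers in 3 of 6 (177 to 222 to 57 to 110) and heart markers in 3 of 3 (297.4 to 431.1 to 138.1 to 174.6). Neuron markers rose in 3 of 6 (48.4 to 57.4 CPM to 137 to 205). In KI embryos 2 of 6 neuron markers rose and 1 fell, 3 of 9 fibroblast markers rose and 1 fell, and 0 of 5 extraembryonic endoderm and 0 of 3 heart markers were called. Their part in the members' changes was not tested.

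Of 19 other mesothelial genes tested at E9.5, 5 rose and 2 fell in KI, with the transcription factor Tcf21 at 1.70, Krt18 at 1.20 and Aldh1a2 at -1.21. Complement genes rose in 2 of 7 cases, acute phase genes in 1 of 8 and cytokine and NF-kappaB genes in 4 of 12, with 0 lower in any of these lists. Marker sums of other tissues differed in the same embryos. Neuron markers were at 137 to 205 CPM in control and 40.7 to 43.9 in KI, extraembryonic endoderm markers at 96.7 to 106 against 227 to 242, and trophoblast markers at 57 to 110 against 202 to 218. Fibroblast markers were at 831 to 1604 CPM against 1616 to 2284. Hepatocyte and yolk sac markers were at 16.8 to 25.5 CPM against 37.4 to 135. Heart markers rose in 3 of 3 cases, at sums of 138.1 to 174.6 CPM in control and 299.9 to 589.6 in KI, and neural progenitor markers fell in 3 of 3 (365.2 to 479.7 against 185.2 to 225.8). At E8.5 acute phase genes were called lower in KI in 2 of 8 cases (median log2 change -1.76) and uroplakins and keratins in 2 of 5, with 0 higher in either list. Other mesothelial genes were called higher in 1 of 19 cases and lower in 2, cytokine and NF-kappaB genes higher in 1 of 12, and complement genes in 0 of 7. At that stage trophoblast markers were at 177 to 222 CPM in control against 342 to 367 in KI. Extraembryonic endoderm markers were at 170.7 to 220.0 against 220.6 to 283.0, and heart markers at 297.4 to 431.1 against 430.4 to 640.5. Neural progenitor markers were at 235.0 to 270.0 CPM against 191.0 to 211.4, and 0 of 9 fibroblast markers were called. The part of these in the changes of Wt1, Krt19 and Upk1b was not tested.

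Pattern over the 18 groups is given by Pearson's r of group means, as description with no p, since groups share library sets and RNA label. Among the 36 member pairs, Upk3b and Upk1b were most alike (r = 0.921), then Upk1b and Lcn2 (0.895), Upk3b and Lcn2 (0.844) and C3 and Saa3 (0.748), while Krt19 and Saa3 were least alike (-0.215). Among all genes above 5 CPM in at least 1 group, those nearest to Upk3b after Upk1b were Ccbe1 (0.917), Lbp (0.912) and Bnc1 (0.906), of which Lbp binds lipopolysaccharide in the acute phase. Nearest to C3 were Col6a6 (0.927), the matrix protein gene Mgp (0.917) and Fgf21 (0.903), and nearest to Saa3 were Chil1 (0.848) and B3gnt9 (0.844). Wt1 was nearest to E230016M11Rik (0.889), and Msln to the complement protease gene C2 (0.843). Krt19 was nearest to the simple-epithelial keratin gene Krt18 (0.958), Serping1 to Mbd2 (0.854) and Lcn2 to Fmod (0.931). Reads of the antisense gene Wt1os were 0 to 8.77% of the reads of Wt1 by group, and without a stated strand setting the 2 cannot be separated.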

How the data were processed

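RNA from 37 libraries was analysed, and 63 of the 100 samples of the series were not used here. The deposited tables give whole read counts and RPKM for each of 29082 transcripts. Per the submitters' processing notes, bcl2fastq, Bowtie2, STAR, SICER 1.1 and genome build mm9 were used, with no role stated, and counting by strand is not given in the sources used here. Per the labels, libraries were made with a poly(A) and a NEBNext Ultra II RNA kit. The transcript with the most reads stood for each gene. Members and gene lists were chosen with earlier results of these data known.

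Counts were tested with edgeR 4.0.16 (quasi-likelihood, TMM, filterByExpr; R 4.3.3, limma 3.58.1), with 1 fit each for the 8 neural libraries, the 8 of trophectoderm and extraembryonic endoderm, the 12 of embryos, the 9 of stem cells and embryoid bodies, and the 6 of these that are KI, with Benjamini-Hochberg adjustment over all genes tested and a threshold of 0.05. DESeq2 1.42.0 was an alternative, with other scaling, filters, a 2-fold minimum, pseudocounts and left-out libraries. Contrasts known when the genes were chosen were described as log2(CPM + 0.5) from libraries of 1 CPM or more, called apart at 2-fold without overlap. Scripts were tested on simulated data, and Python 3.11.15 with scipy 1.17.1 was used. Genes named from a list are up to 3 with the largest change among those called. Pattern neighbours are among the 5 with the highest correlation over 18 group means.

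Title numbers of E8.5 embryos each joined 1 KI and 1 control embryo whose deviations from group means correlated (r = 0.413, 0.518 and 0.249). A block by title number was therefore fitted as an alternative, while the main E8.5 values come from the fit with no block. At E9.5 same-number correlations ran from 0.027 to 0.253 and were not all above 0.1. KI clones are the same cell lines over the embryoid body course.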

Additional observations from a re-analysis of the deposited data

Results flagged for a closer look

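The KI effect on Upk1b differed between the embryo stages by 2.01 on the log2 scale (adjusted p = 0.0358, edgeR), with KI lower at E8.5 and overlapping with control at E9.5. It was not called in 7 of 17 other fits, each leaving out 1 embryo (adjusted p 0.0121 to 0.125 over the 17, edgeR), and the E8.5 call was lost with only E8.5 libraries fitted. That on Krt19 differed by 0.89 (adjusted p = 0.0176, edgeR), with overlap at E8.5 and KI higher at E9.5. Upk3b was lower in both KI clones than the flox mean in trophectoderm and higher in both in extraembryonic endoderm, and the 2 effects differed by -2.07 on the log2 scale. This difference was not tested, and both levels are under 2 CPM. Krt19 was above the flox mean in both KI clones in trophectoderm and below it in both in extraembryonic endoderm, a log2 difference of 0.24 that was not tested. In extraembryonic endoderm its groups overlapped (414.5 and 359.5 CPM in KI, 412 and 428 in flox, adjusted p = 0.164, edgeR).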

How the results depend on the processing

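Of 941 values of single members under other settings, 859 kept their direction and side of the threshold, 24 lost the call, 12 gained it, and 46 had another sign but were called in neither fit. Fitting only the E8.5 libraries left 0 members called at E8.5, and leaving out 1 embryo gave 0 to 2. A 2-fold minimum left 0 members at E9.5 and 1 for the change in effect, and leaving out 1 embryo gave 1 to 3 for that change. DESeq2 called 2 members over the embryoid body course, and leaving out 1 library gave 0 to 1. For KI day 4 against day 0, leaving out 1 library gave 2 to 3 members. In trophectoderm a pseudocount of 0.1 set 5 members apart in place of 3. Counts over all genes moved by more than 1.5 times in these cases. A 2-fold minimum gave 1330 genes at neural day 8 in place of 3202, 1708 in extraembryonic endoderm in place of 5520, 214 at E8.5 in place of 843, 920 at E9.5 in place of 4560 and 319 for the change in effect in place of 1024. It gave 4010 for KI day 4 against day 0 in place of 7882, 6412 for day 10 against day 4 in place of 11492, and 1037 and 940 with stage in control and KI embryos in place of 3738 and 5012. Leaving out 1 library gave 1896 to 2362 at neural day 8, 3641 to 4967 in extraembryonic endoderm, 363 to 755 at E8.5, 607 to 1175 for the change in effect and 4982 to 5398 for KI day 4 against day 0. Over the embryoid body course, where 121 genes were called, it gave 26 to 332, DESeq2 called 777, and a single KI clone left 0 and 1. Leaving out libraries of the described contrasts was chosen after seeing the data. The causes were not tested. With the replicate block (E8.5 pairs, KI clones) the call of Serping1 changed at KI day 4 against day 0 (log2 change -1.34, adjusted p = 0.0299, edgeR) and no other member's call did. No block joined flox and KI in cultures, where lines are nested in genotype, and a block by title number for E9.5 against E8.5 was not run. Msln and Lcn2 were under 0.2 CPM in all libraries of neural day 8, and whether depth limited their test was not tested.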
